A study of Homo sapiens with 5 samples.

Results

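The 206 peaks described here are the stretches that 2 of 4 deposited lists of ERα peaks placed on chromosome 22, 30 from VCaP cells and 176 from VCaP ERα + E2 cells, of 6565 peaks in all. They were chosen by chromosome alone, so that their number on this chromosome is how they were found and is given without a test. The lists of VCaP + E2 (57 peaks on chromosome 22) and NCI-H660 + E2 (55 peaks) served as contrast. Positions are in bp of the build hg18, which the submitters' processing notes name, and are counted from 1.

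ERα, the oestrogen receptor alpha, is a nuclear receptor that is activated by 17β-oestradiol (E2) and binds chromatin at oestrogen response elements or through other factors, often far from gene starts. Chromosome 22 is one of the smallest human chromosomes. Its short arm consists largely of repeated sequence, and sequence that can be mapped lies almost wholly on the long arm. The part of the long arm next to the centromere is known for long blocks of duplicated sequence, between which the deletion of DiGeorge syndrome arises.

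VCaP, an established prostate cancer line that responds to androgen, was used at passages 3 to 4. VCaP ERα cells are VCaP cells made to overexpress ERα, used at passages 10 to 12. NCI-H660, used at passages 4 to 5, is an established line of neuroendocrine prostate cancer. VCaP cells and NCI-H660 cells of the E2 groups were kept without hormone for 48 h and then received 10 nM E2 for 14 h. For VCaP ERα + E2, the dose and time of E2 in the sequenced library are not given in the sources used here. The same holds for the medium of the VCaP library made without E2, and for the promoter and clone behind the ERα overexpression. All 4 libraries were made with 1 antibody against ERα, and each group had 1 library. No replicate error can therefore be given, and differences between groups carry no test. VCaP and VCaP ERα + E2 were sequenced on a HiSeq and the contrast lists on a Genome Analyzer II, so that instrument and group cannot be told apart in any comparison of the first pair with the second. The lists hold positions only, and the number of reads behind them is unknown. The 95% intervals below are exact binomial (Clopper-Pearson) intervals, which cover counting error only and are too narrow for peaks that lie in clusters.

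Chromosome 22 was the densest autosome in both member lists. Over the stretch that the 4 lists span together (15075428 to 49183232, 34.1 Mb), VCaP had 0.880 peaks per Mb and VCaP ERα + E2 had 5.16. By this measure it ranked second of the chromosomes in each of these lists, behind Y. In VCaP the next was chromosome 21 with 0.162 peaks per Mb. In VCaP ERα + E2 the next were chromosome 13 with 4.23 and X with 3.98, and the next autosome after 13 was again 21 with 1.32. VCaP + E2 had 1.67 peaks per Mb on chromosome 22 and NCI-H660 + E2 had 1.61, which put it in the fourth and the fifth place. In these contrast lists chromosome 21 was at 1.65 and 3.97 peaks per Mb.

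**Figure D1:**
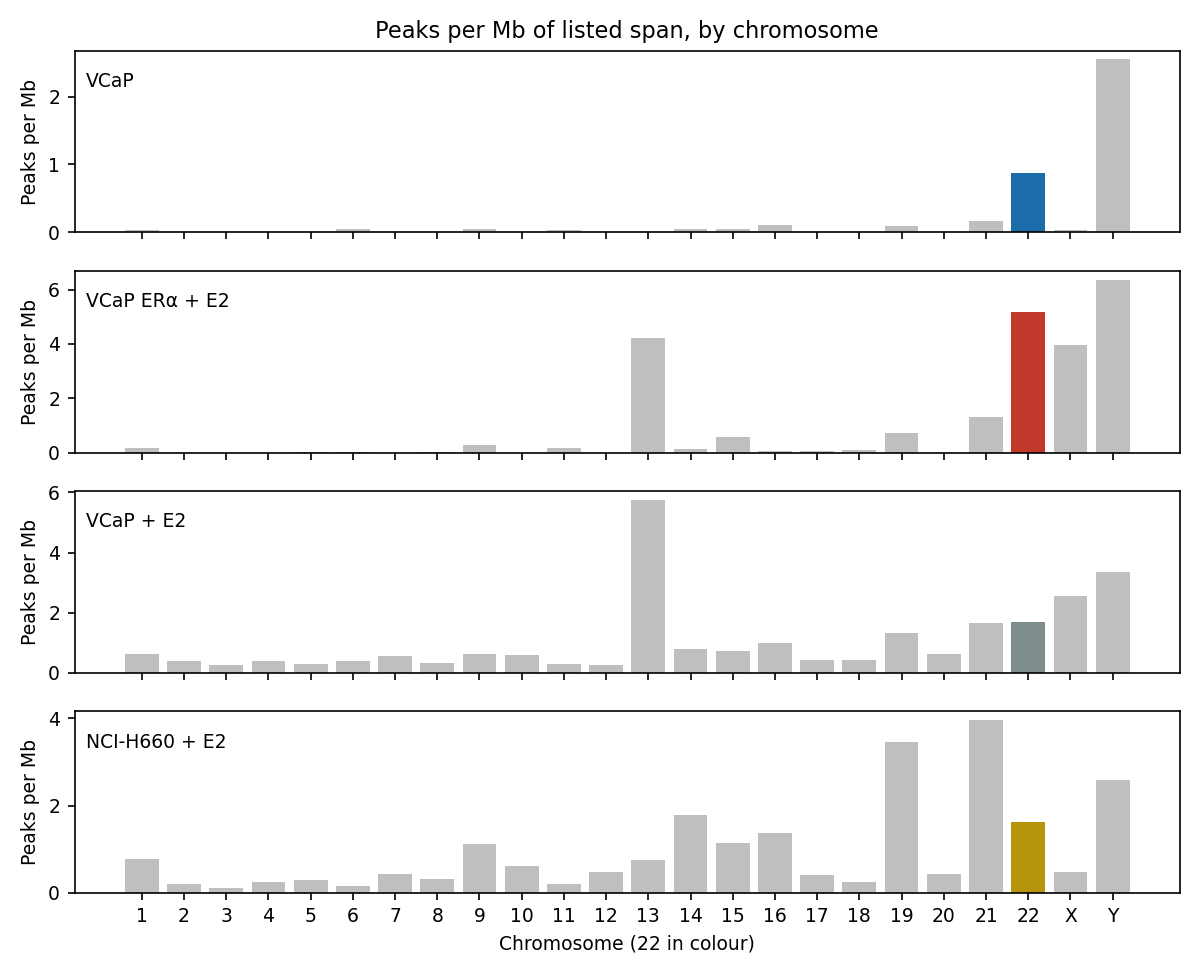
Peaks per Mb of the listed span (y axis, linear and separate for each panel) for each chromosome (x axis) in the 4 lists, with chromosome 22 in colour and 1 library per list. In VCaP and VCaP ERα + E2 the bar of chromosome 22, at 0.880 and 5.16 peaks per Mb, is second to that of Y, and in the contrast lists it stands at 1.67 and 1.61.

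The peaks on chromosomes 13, X and Y made up most of the VCaP and VCaP ERα + E2 lists. In VCaP they numbered 0, 6 and 146 of 241, so that nearly all were on Y. In VCaP ERα + E2 they numbered 400, 610 and 365 of 1833. Outside these 3 chromosomes, which were set aside once the positions were known, chromosome 22 held 30 of 89 VCaP peaks (33.7%, interval 24.0 to 44.5%) and 176 of 458 VCaP ERα + E2 peaks (38.4%, interval 33.95 to 43.1%). In the contrast lists it held 57 of 1377 peaks of VCaP + E2 (4.14%, interval 3.15 to 5.33%) and 55 of 1693 peaks of NCI-H660 + E2 (3.25%, interval 2.46 to 4.21%). For scale, chromosome 22 carries 2.23% of the genes in a RefSeq table of GRCh38.p14 (1333 of 59679), which was used for this number only. Of all peaks of a list, with 13, X and Y, it held 12.4% in VCaP and 9.60% in VCaP ERα + E2. In VCaP + E2 it held 2.28% and in NCI-H660 + E2 2.77%. By covered length, again over all chromosomes, the 4 lists were closer together. Chromosome 22 peaks covered 6.96 kb in VCaP (2.71% of the covered length of the list), 37.3 kb in VCaP ERα + E2 (2.96%), 11.6 kb in VCaP + E2 (1.88%) and 10.3 kb in NCI-H660 + E2 (2.46%).

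In each list the share by length was lower than the share of all peaks by number, and the widths were compared. Peaks on chromosome 22 had a median of 187.5 bp in VCaP (range 103 to 692 bp) against 297 bp on its other chromosomes. In VCaP ERα + E2 the median was 171 bp (range 99 to 811 bp) against 224 bp elsewhere. The medians were 168 and 169 bp in VCaP + E2 and 148 and 166 bp in NCI-H660 + E2. The very wide peaks of both member lists lay on other chromosomes. The widest was 98501 bp in VCaP, where the whole list covered 256 kb. In VCaP ERα + E2 it was 98499 bp, with 1260 kb covered. Of the whole VCaP list 16.2% of peaks were 1000 bp or wider, and on chromosome 22 this was so for 0 of 30, which allows a share of up to 10%. Of the whole VCaP ERα + E2 list it was 10.5%, and on chromosome 22 it was 0 of 176, which allows up to 1.70%. Peaks on the other chromosomes were mainly on Y in VCaP (146 peaks). In VCaP ERα + E2 they were mainly on 13, X and Y (400, 610 and 365 peaks). Widths on the other autosomes alone were not computed, so how chromosome 22 compares with them in width is not known.

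**Figure D2:**
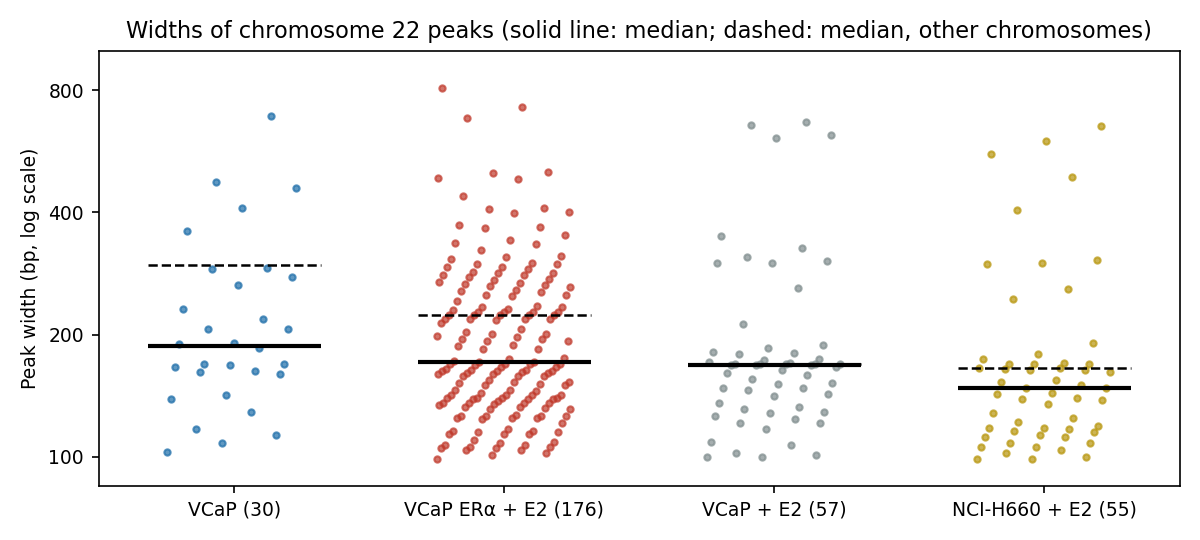
Width in bp (y axis, log scale) of each chromosome 22 peak in the 4 lists, with 1 point per peak spread sideways for legibility, a solid line at the median and a dashed line at the median of the other chromosomes. The solid line lies below the dashed one in VCaP (187.5 against 297 bp) and VCaP ERα + E2 (171 against 224 bp), and no point reaches 1000 bp. Widths on the other autosomes alone were not computed.

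Where the peaks lay on the long arm differed between the lists. VCaP ERα + E2 had its peaks near the centromere, with a median midpoint of 20.1 Mb. The median was 28.0 Mb in VCaP, 34.4 Mb in VCaP + E2 and 36.3 Mb in NCI-H660 + E2. Between 15 and 20 Mb VCaP ERα + E2 had 84 peaks (47.7% of its peaks on the chromosome, interval 40.2 to 55.4%) and VCaP had 10 (33.3%, interval 17.3 to 52.8%). VCaP + E2 had 9 there (15.8%, interval 7.48 to 27.9%) and NCI-H660 + E2 had 3 (5.45%, interval 1.14 to 15.1%). The interval of VCaP overlapped those of VCaP ERα + E2 and VCaP + E2. The concentration was narrow, since 76 of the 84 VCaP ERα + E2 peaks lay between 17 and 20 Mb, with 29 in the single Mb from 19 to 20 Mb. From 20 to 25 Mb the number fell to 28. It was 14 from 25 to 30 Mb and 4 from 30 to 35 Mb, and then 24 from 35 to 40 Mb and 20 from 40 to 45 Mb. Only 2 lay beyond 45 Mb.

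The distal part of the arm was the reverse. From 34 Mb on, VCaP ERα + E2 had 28.4% of its chromosome 22 peaks (50 peaks) and VCaP had 16.7% (5 peaks), whereas VCaP + E2 had 56.1% (32 peaks) and NCI-H660 + E2 had 63.6% (35 peaks). In absolute number the distal VCaP ERα + E2 peaks were thus not fewer than those of the contrast lists, and its larger number lay between 16 and 21 Mb, with 94 peaks against 8 and 3. These windows were set after the positions were seen.

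**Figure D3:**
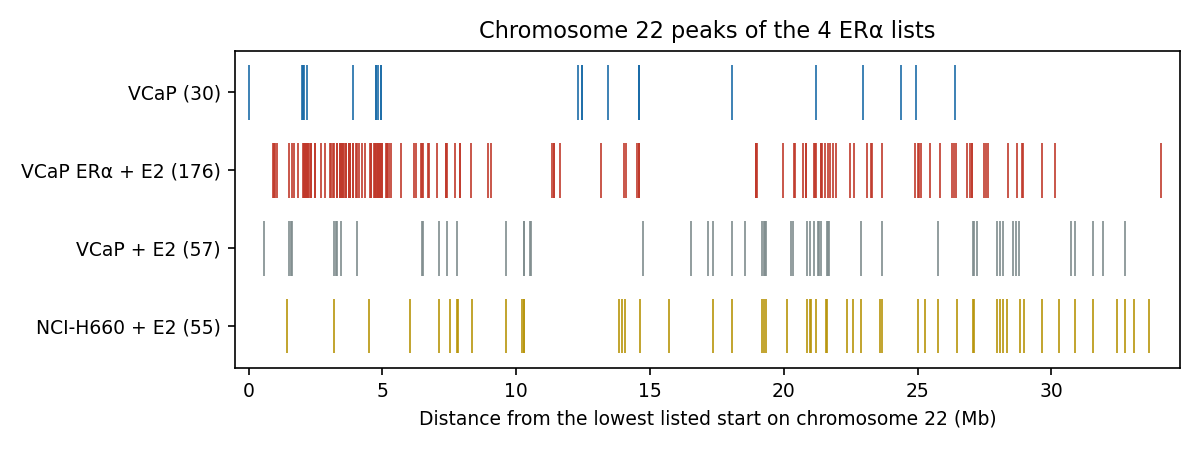
Each vertical line is 1 peak, placed by its distance in Mb from the lowest listed start on chromosome 22 (x axis), with 1 row per list and the number of peaks in brackets. VCaP ERα + E2 lines crowd between about 2 and 5 Mb, where VCaP has 2 of its groups, and the lines of the contrast lists are spread more evenly.

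The first VCaP peak (15075428 to 15075587) was the one nearest to the centromere in any list, and the last of this list ended at 41460689. VCaP ERα + E2 began at 15977591 and its last peak, 49182898 to 49183232, was the most distal of all. Long empty stretches remained between the peaks of each list. The longest in VCaP was 7.38 Mb, from 20010696 to 27394135. VCaP ERα + E2 had none from 29668261 to 34025412 (4.36 Mb). VCaP + E2 had 4.18 Mb without a peak (25631916 to 29810137) and NCI-H660 + E2 3.55 Mb (25375021 to 28922714). The last 2 stretches largely coincided, and VCaP and VCaP ERα + E2 had peaks within both of them.

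**Figure D4:**
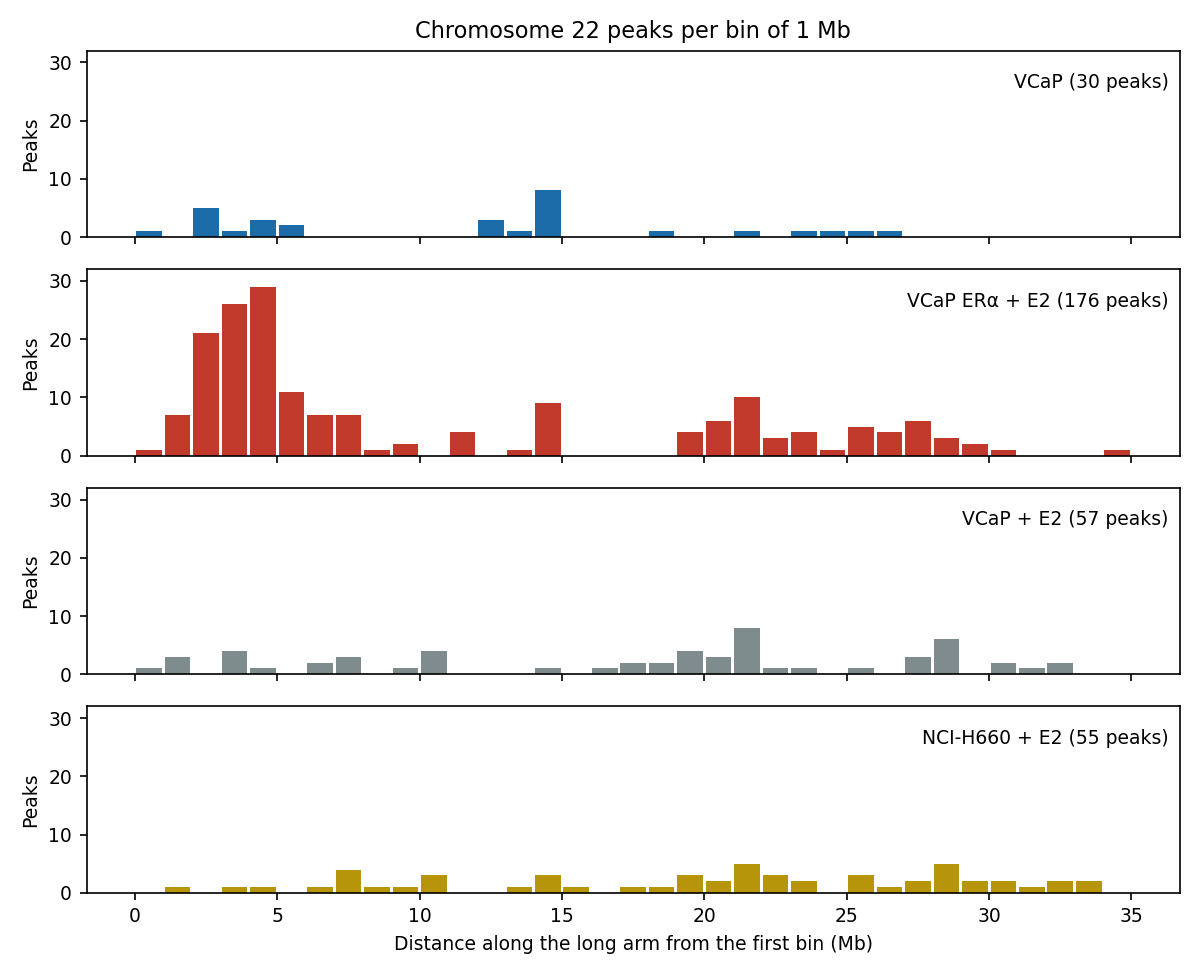
Number of peaks (y axis) in each bin of 1 Mb along the long arm, as distance in Mb from the first bin (x axis), for the 4 lists on 1 common scale. The tallest bar is the 29 peaks of VCaP ERα + E2 in the fifth bin, and the tallest bar of VCaP is the 8 peaks in the fifteenth.

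On chromosome 22, neighbouring peaks were closer together in the member lists than in the contrast lists. Gaps were not computed for the other chromosomes, and VCaP ERα + E2 also had the most peaks here. In VCaP ERα + E2 114 of 175 gaps between neighbours were 100 kb or less (65.1%), with a median gap of 47.8 kb, and 13 were 1 kb or less. VCaP had 16 of 29 gaps of up to 100 kb (55.2%), and 5 were 1 kb or less, most of these between 29653977 and 29668278. VCaP + E2 had 17 of 56 (30.4%) and NCI-H660 + E2 9 of 54 (16.7%), and neither had a gap of 1 kb or less. A cluster was then defined as 5 or more consecutive peaks of a list, none over 100 kb from the next. They held 61% of the VCaP list over all chromosomes, 80.1% of VCaP ERα + E2, 42.3% of VCaP + E2 and 17.8% of NCI-H660 + E2. On chromosome 22 they held 18 of 30 VCaP peaks (60%, interval 40.6 to 77.3%), close to the share of its whole list. Of the VCaP ERα + E2 peaks it was 78 of 176 (44.3%, interval 36.8 to 52.0%), which was below that of its list. Most peaks of both whole lists lay on 13, X and Y. The share in clusters on the other autosomes was not computed, so how chromosome 22 compares with them is not known. The contrast lists had 0 of 57 (interval 0 to 6.27%) and 0 of 55 (interval 0 to 6.49%) in clusters.

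VCaP ERα + E2 had 6 clusters. The first held 17 peaks from 17117471 to 17398378 (281 kb), with widths of 102 to 725 bp. The widest of these, 17188872 to 17189596, was the second widest of the list on this chromosome. The second held 9 peaks from 18488165 to 18731395 (243 kb) and the third 14 peaks from 18837851 to 19202860 (365 kb). Their median widths were 158 and 204.5 bp.

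The fourth was the largest, with 25 peaks from 19754798 to 20070205 (315 kb) and a median gap of 5.89 kb. It contained the widest chromosome 22 peak of VCaP ERα + E2 (19939795 to 19940605, 811 bp) and the fifth widest (19949401 to 19949901, 501 bp). Next came 6 peaks from 20211398 to 20394294 (183 kb). These 5 clusters together held 71 peaks, 40.3% of the list on the chromosome, between 17117471 and 20394294. Peaks covered between 0.682% and 1.85% of the length of each, so that most of the sequence within a cluster lay outside any peak. The sixth cluster lay apart, with 7 peaks from 29607902 to 29668261 (60.4 kb).

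VCaP had 3 clusters, and all 3 overlapped one of VCaP ERα + E2. The first held 5 peaks from 17064828 to 17241247 (176 kb) and the second 5 peaks from 19851532 to 20010696 (159 kb). Inside their limits VCaP ERα + E2 had 12 and 16 peaks, and VCaP + E2 and NCI-H660 + E2 had 0. The first contained the only one of the 5 widest VCaP peaks that lay near the centromere, 17097902 to 17098311 (410 bp). The third held 8 peaks within 14.3 kb, from 29653977 to 29668278. Of the 30 VCaP peaks, 16 lay inside a cluster of VCaP ERα + E2, and 8 of these were in its sixth cluster. The same share was not computed for other chromosomes, so the number cannot be read as particular to chromosome 22.

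The stretch of 14.3 kb was the densest of the VCaP list on this chromosome. In VCaP its 8 peaks made up 26.7% of the peaks on chromosome 22 and 39.2% of their covered length. In VCaP ERα + E2 the 6 peaks there made up 3.41% of the peaks and 5.94% of the covered length. They were wide for this chromosome, with a median of 289.5 bp in VCaP against 168.5 bp for its other chromosome 22 peaks. In VCaP ERα + E2 the medians were 361 and 169 bp. VCaP ERα + E2 had as many peaks in 1 other place of this length, 6 peaks of 116 to 501 bp between 19945442 and 19959400 in the fourth cluster of the list, none of which overlapped another list. The stretch of 14.3 kb held 0 peaks of the contrast lists. Their nearest peaks beyond its end were at 142 kb in VCaP + E2 (29810137 to 29810257) and 25.9 kb in NCI-H660 + E2 (29694155 to 29694272).

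Every one of the 6 VCaP ERα + E2 peaks in this stretch coincided with a VCaP peak. The first ran from 29653977 to 29654194 in VCaP and from 29653956 to 29654239 in VCaP ERα + E2. The second was the widest of the VCaP peaks on the chromosome and the third widest of VCaP ERα + E2. It ran from 29658395 to 29659086 (692 bp) and from 29658373 to 29659056 (684 bp), so that both limits differed by at most 30 bp.

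The third pair overlapped least, with 29660057 to 29660225 in VCaP and 29660008 to 29660106 in VCaP ERα + E2, or 50 bp in common. The fourth ran from 29660726 to 29661200 (475 bp) and from 29660781 to 29661264 (484 bp). The fifth ended at 29664033 and 29664032, with widths of 459 and 438 bp. The fourth and the fifth pair had similar widths in both lists, whereas the VCaP peak of the third was wider (169 against 99 bp). The last was 29667918 to 29668278 (361 bp) in VCaP and 29668035 to 29668261 (227 bp) in VCaP ERα + E2. VCaP alone had 2 narrow peaks, 29662457 to 29662618 (162 bp) and 29662838 to 29663027 (190 bp), in the gap between the fourth and the fifth pair. Of the 5 widest VCaP peaks on chromosome 22, 4 lay in this stretch, and each overlapped VCaP ERα + E2. The lists hold positions only, and whether the reads in this stretch came from receptor-bound chromatin was not tested.

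**Figure D5:**
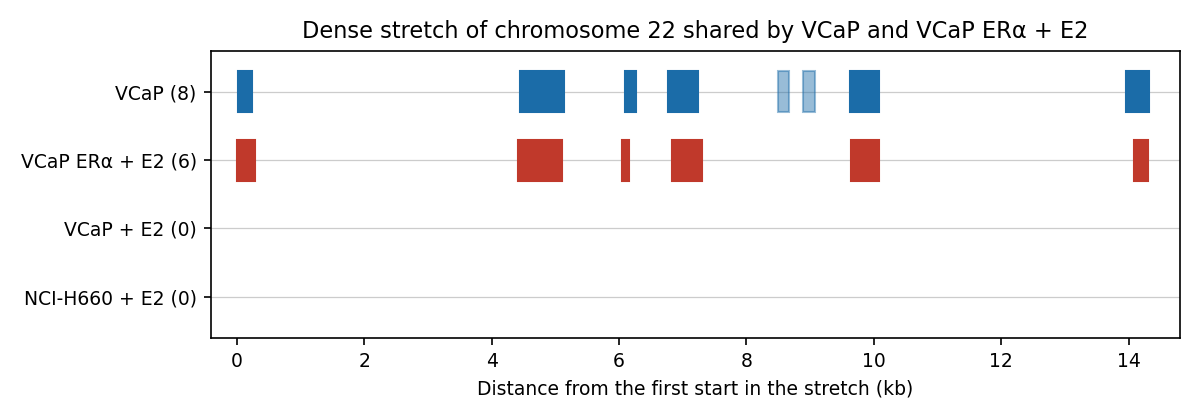
Peaks in the dense stretch, drawn to scale as blocks by distance in kb from its first start (x axis), with 1 row per list. Dark blocks overlap a peak of the other member list and pale ones do not. The 6 VCaP ERα + E2 blocks stand under VCaP blocks, 2 VCaP blocks have no partner, and the rows of VCaP + E2 and NCI-H660 + E2 are empty.

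Whether the lists shared sites elsewhere on the chromosome was asked next. An overlap of 1 bp or more with any peak of a second list counted as sharing. Of all VCaP peaks 41.5% were shared with VCaP ERα + E2, and on chromosome 22 it was 8 of 30 (26.7%, interval 12.3 to 45.9%). On the other autosomes without 13 it was 7 of 59 (11.9%, interval 4.91 to 22.9%), and these intervals overlap. The dense stretch decided the value, since without it 2 of 22 VCaP peaks were shared (9.09%, interval 1.12 to 29.2%). Chromosome 22 thus held 8 of the 15 VCaP peaks outside 13, X and Y that were shared with VCaP ERα + E2, and 6 of these lay in 1 stretch.

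The other 2 shared sites were single. One was at 17241081 to 17241247 in VCaP and 17241144 to 17241280 in VCaP ERα + E2, inside the first cluster of each list, with 104 bp in common. The other was at 36296220 to 36296425 in VCaP and lay wholly within 36296204 to 36296468 of VCaP ERα + E2. Over the 8 pairs the midpoints differed by a median of 37 bp and at most 84 bp.

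Close neighbours without overlap were nearly as frequent as overlaps. A further 7 VCaP peaks lay within 10 kb of a VCaP ERα + E2 peak without touching it, 5 of them within 2 kb, so that 15 of 30 (50%) were within 10 kb, against 58.1% over all chromosomes. These included 18962431 to 18962559, which was 610 bp from a VCaP ERα + E2 peak, and 17161423 to 17161591 and 19912517 to 19912793, at 1.68 and 1.74 kb. The others within 2 kb, at 976 and 567 bp, were 29662457 to 29662618 and 29662838 to 29663027 of the dense stretch. All 8 VCaP peaks of that stretch were among the 15, so it weighs on this share and on the median distance. The share within 10 kb on the other autosomes was not computed. The median distance from a VCaP peak to the nearest VCaP ERα + E2 peak was 12.8 kb, against 434 kb to VCaP + E2 and 312 kb to NCI-H660 + E2, lists with fewer peaks on this chromosome. At the other end, 8 VCaP peaks were over 100 kb from any VCaP ERα + E2 peak. They included 27394135 to 27394242, 27539777 to 27540007 and 27545590 to 27545757, at 665 to 703 kb.

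From the side of VCaP ERα + E2, VCaP shared 8 of 176 peaks (4.55%, interval 1.98 to 8.76%), against 2.35% over all chromosomes. The number without the dense stretch was 2 of 170 (1.18%, interval 0.143 to 4.19%). Sharing with VCaP + E2 was 8.84% over all chromosomes and 1 of 176 on chromosome 22 (0.568%, interval 0.0144 to 3.12%). On the other autosomes without 13 it was 3 of 282 (1.06%, interval 0.220 to 3.08%), so that the low sharing was not particular to chromosome 22. The single site was 18377818 to 18378319, the fourth widest of the list on this chromosome, which contained the VCaP + E2 peak 18378049 to 18378217. With NCI-H660 + E2 it was 0.436% over all chromosomes, 2 of 282 on the other autosomes without 13 (0.709%) and 0 of 176 on chromosome 22, which allows up to 1.70%. Within 10 kb of a VCaP + E2 peak lay 10 of the 176 (5.68%), against 50.2% over all chromosomes. Within 10 kb of NCI-H660 + E2 lay 1 of the 176 (0.568%), against 4.53%. Most VCaP ERα + E2 peaks lay on 13, X and Y, and shares within 10 kb were not computed for the other autosomes. The lower values within 10 kb can therefore not be read as particular to chromosome 22.

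Of the VCaP peaks 7.47% were shared with VCaP + E2 and 4.15% with NCI-H660 + E2 over all chromosomes. On chromosome 22 it was 1 of 30 in each case (3.33%, interval 0.0844 to 17.2%), and it was the same site. On the other autosomes without 13 the shares were 13 of 59 (22.03%, interval 12.3 to 34.7%) and 8 of 59 (13.6%, interval 6.04 to 24.98%), and both intervals overlap that of chromosome 22. In VCaP the peak was 33122512 to 33122653. The wider peaks of the contrast lists were 33122312 to 33122638 (VCaP + E2) and 33122314 to 33122611 (NCI-H660 + E2). The nearest VCaP ERα + E2 peak was 903 kb away. It was the only site of the chromosome in 3 lists, and none was in 4. Merged where they overlapped, the 318 peaks of the 4 lists made 284 sites, of which 251 were in 1 list (88.4%) and 32 in 2. Merged sites were not counted on the other chromosomes, so this share cannot be read as particular to chromosome 22.

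The contrast lists shared more with each other. Over all chromosomes 34.9% of VCaP + E2 peaks overlapped NCI-H660 + E2, and on chromosome 22 it was 24 of 57 (42.1%, interval 29.1 to 55.9%). On the other autosomes without 13 it was 666 of 1320 (50.5%, interval 47.7 to 53.2%). Of these 24 peaks 0 overlapped VCaP ERα + E2. Of all VCaP + E2 peaks, whether or not shared with NCI-H660 + E2, 13.7% overlapped VCaP ERα + E2. On chromosome 22 it was 1 of 57 (1.75%, interval 0.0444 to 9.39%). On the other autosomes without 13 it was 3 of 1320 (0.227%). All 24 peaks shared by the contrast lists lay from 22175015 on, outside the part next to the centromere where VCaP ERα + E2 was densest. Below 20 Mb, the 9 peaks of VCaP + E2 and the 3 of NCI-H660 + E2 had no site in common by the rule of 1 bp. The nearest were 18276888 to 18277188 and 18277258 to 18277423, which did not touch but counted as shared when peaks were set to 500 bp.

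Most of the members were therefore in 1 list. Over all chromosomes 52.7% of the VCaP list and 88.8% of the VCaP ERα + E2 list overlapped no other. On chromosome 22 the numbers were 21 of 30 (70%, interval 50.6 to 85.3%) and 167 of 176 (94.9%, interval 90.5 to 97.6%). On the other autosomes without 13 they were 39 of 59 (66.1%) and 270 of 282 (95.7%), within the intervals of chromosome 22.

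Sequence and annotation of hg18 were not used here. No peak was assigned to a gene, an exon, a promoter, a repeat or an oestrogen response element, and the gene lists set for this chromosome could not be read against the peaks.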

How the data were processed

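Peak lists of 4 ERα ChIP-seq libraries were analysed, and the VCaP input library was not analysed here. The deposited values are chromosome, start and end of each peak in bp, with no count, height or score. Per the labels, the submitters' processing notes name hg18 and CASAVA 1.8, and the study names ChIPSeeqer as the peak caller. The study shows input DNA as the control of its coverage tracks. Aligner, threshold, filters on duplicated or repeated reads and the use of input in calling the peaks are not given in the sources used here. Peaks were called per library. Repeated or amplified sequence can enter a list that was made without input, and the number of peaks rises with depth.

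Peaks whose first column was chr22 were taken. The files count starts from 0, and 1 was added to each for printing. The members and lists were chosen with earlier results of these data known. Named peaks are the 5 widest of a list, the first and last, every cluster and every shared site, and others were named after their values were seen. A cluster had 5 or more consecutive peaks, none over 100 kb from the next, and sharing needed 1 bp. Where a count of 0 is given with the share it allows, that share was taken as 3 peaks of the group. It lies below the upper end of the exact interval. Alternatives were merging within 1000 bp, the wider 50% of each list, covered length, other cluster settings (gaps of 50 or 200 kb, at least 10 peaks), and sharing by 50% of the shorter peak, midpoints within 1000 bp, peaks of 500 bp or distance within 10 kb. Overlap counting was tested on simulated data with lists of 30 and 176 peaks, where 0, 5 and 20 planted overlaps gave 0, 5 and 20. Computations used Python 3.11.15, numpy 2.4.6 and scipy 1.17.1, and plots matplotlib 3.10.9.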

Additional observations from a re-analysis of the deposited data

How the results depend on the processing

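Of 120 alternative values for 28 results, 83 stayed within the interval of the reported share or within 1.5 times the reported number, and 37 moved. With the wider 50% of each list, chosen over all chromosomes, VCaP kept 8 chromosome 22 peaks (6.61% of the list), VCaP ERα + E2 kept 64 (6.98%), VCaP + E2 kept 21 (1.68%) and NCI-H660 + E2 kept 17 (1.71%). By covered length the share was 2.71% in VCaP and 2.96% in VCaP ERα + E2, after merging within 1000 bp it was 16.2% in VCaP ERα + E2, and outside chromosomes 13, X and Y it was 33.7%, 38.4% and 4.14% in VCaP, VCaP ERα + E2 and VCaP + E2.

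The share in clusters moved to 26.7% (gap of 50 kb) and 0% (at least 10 peaks) in VCaP, to 35.8% (50 kb), 65.3% (200 kb) and 31.8% (at least 10 peaks) in VCaP ERα + E2, and to 10.5% (200 kb) in VCaP + E2. The share below 20 Mb moved to 37.3% in VCaP ERα + E2 when peaks within 10 kb were merged (16.1% in VCaP + E2 under the same setting), and to 4.76% in VCaP + E2 with the wider 50% (1 of 21 peaks).

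The share of VCaP in VCaP ERα + E2 was 50% within 10 kb, 50% with the wider 50% (4 of 8) and 9.09% without the dense stretch. VCaP ERα + E2 peaks shared with VCaP were 9.66% within 10 kb and 1.18% without the stretch. VCaP ERα + E2 in VCaP + E2 was 5.68% and VCaP + E2 in VCaP ERα + E2 12.3% within 10 kb. With the wider 50%, sharing was 0% for VCaP in VCaP + E2, VCaP in NCI-H660 + E2, VCaP ERα + E2 in VCaP + E2, VCaP + E2 in VCaP, VCaP + E2 in VCaP ERα + E2 and NCI-H660 + E2 in VCaP, and 61.9% for VCaP + E2 in NCI-H660 + E2 and 76.5% for the reverse. The 0% values rest on 8 VCaP, 64 VCaP ERα + E2, 21 VCaP + E2 or 17 NCI-H660 + E2 peaks. Each stood against 1 shared peak in the main setting, and its interval excludes 0. Loss of that peak was therefore bound to count as moved. The wider 50% leaves fewer peaks by construction, and the cause of the other changes was not tested.

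The omission of 13, X and Y and of the dense stretch, and the alternatives for the share below 20 Mb, were added after the data were seen. No paired analysis was possible because no group has a second library, and none was left out of a group. Alternatives for genes, repeats and oestrogen response elements were not run, since these results need hg18 sequence or annotation. The unknown read numbers and the 30 VCaP peaks limit every comparison of shares.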
